A study of Rattus norvegicus with 12 samples.

Results

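The comparison described here set 2 groups of rat intestine, both taken before any operation, against each other: the groups labelled preSTC and preCTC. All genes of the deposited count table were used, in 8 of the 12 samples of the series, preSTC 1, 5, 7 and 9 and preCTC 1, 5, 7 and 9. The series concerns adaptation of the small bowel after the colon has been removed. The preSTC samples are labelled wild type and preoperative, and the preCTC samples wild type and taken ahead of a sham operation. Every sample is labelled as intestine and as batch 1. The labels do not spell out STC and CTC, name no segment of bowel, and give no strain, sex or age for these 8 samples. They do not say that replicates came from separate animals. The p-values here therefore set each group difference against the scatter among these samples, and part of that scatter may be technical. The libraries were made from polyadenylated RNA.

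The mammalian gut is patterned from head to tail by Hox genes, whose highest-numbered members are used in the hindgut. The last part of the small intestine, the ileum, takes bile acids back from the lumen, absorbs vitamin B12 and the remains of fat and protein digestion, and houses Paneth cells, which secrete antimicrobial peptides at the crypt base. The colon lacks villi. It takes up sodium, water and the short-chain fatty acids made by bacteria, exchanges anions and protons, and is covered by a thick mucus layer.

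The 4 genes that mark the ends of this axis separated the groups. Slc10a2, the transporter that takes bile acids up from the ileal lumen, had 559, 546, 603 and 584 counts per 1000000 (CPM, on library totals scaled by TMM factors) in preSTC 1, 5, 7 and 9. It had 0.109, 0.427, 0.270 and 0.487 CPM in preCTC 1, 5, 7 and 9, the order used throughout. Fabp6, which binds bile acids inside ileal cells, had 4665, 4273, 3723 and 4687 CPM in preSTC and 3.94, 5.60, 6.59 and 6.85 CPM in preCTC. All 4 preSTC samples lay far above all 4 preCTC samples for both genes. Hoxa13, a hindgut Hox gene, had 0.0302, 0.0809, 0.0563 and 0.0292 CPM in preSTC and 50.7, 63.3, 68.0 and 43.2 CPM in preCTC. Hoxb13, a second hindgut member, had 0.302, 0.324, 0.141 and 0.0583 CPM in preSTC and 465, 1.52, 348 and 336 CPM in preCTC. Neither gene overlapped between the groups, but preCTC5 was close to preSTC for Hoxb13 while its Hoxa13 lay among the other 3. The 4 markers thus fitted an ileal profile for preSTC and a colonic one for preCTC 1, 7 and 9, whereas preCTC5 had low ileal markers and 1 of the 2 hindgut markers. The log2 fold changes of preSTC over preCTC with their standard errors (SE) were 10.77 ± 0.31 for Slc10a2, 9.56 ± 0.24 for Fabp6, -10.04 ± 0.28 for Hoxa13 and -10.42 ± 1.89 for Hoxb13. The adjusted p from edgeR's quasi-likelihood test over all genes tested was 3.1e-08, 5.0e-09, 1.1e-08 and 0.004 in that order. Positive log2 fold changes are higher in preSTC throughout, and a gene is said to be higher where its adjusted p in that test was under 0.05. In tissue RNA, fewer cells of a type and less RNA per cell cannot be told apart, for these genes and for those that follow.

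Promoter windows, the 250 bases before the annotated start, are given for 5 of the genes with the widest separation. The 2 bile acid genes were both higher in preSTC, as was a neighbouring pair of Reg lectin genes, and Trpv6, a calcium channel, was higher in preCTC. The sequences are RefSeq's, on the rat assembly GRCr8, and run 5′ to 3′ toward the gene. Capitals mark 3 motifs, searched on both strands: TTTATG, a core of sites bound by the intestinal factors of the CDX family, GTTAAT, a half-site of HNF1, and CAAAGTCCA, a site of HNF4. No matches overlapped. Of 33469 such windows, 11.4% held TTTATG, 6.45% held GTTAAT and 0.338% held CAAAGTCCA.
Slc10a2 (chr16:91087839-91088088, plus strand): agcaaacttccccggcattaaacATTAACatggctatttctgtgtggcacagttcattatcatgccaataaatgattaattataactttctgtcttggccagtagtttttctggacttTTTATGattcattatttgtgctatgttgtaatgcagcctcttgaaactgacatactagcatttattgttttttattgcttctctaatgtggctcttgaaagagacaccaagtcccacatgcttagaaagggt
Fabp6 (chr10:28569728-28569977, minus strand): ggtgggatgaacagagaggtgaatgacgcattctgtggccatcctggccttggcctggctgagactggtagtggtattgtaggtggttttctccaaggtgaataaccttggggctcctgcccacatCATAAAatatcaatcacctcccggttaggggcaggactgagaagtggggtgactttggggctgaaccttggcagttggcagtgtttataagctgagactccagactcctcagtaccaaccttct
Reg3b (chr4:112419526-112419775, plus strand): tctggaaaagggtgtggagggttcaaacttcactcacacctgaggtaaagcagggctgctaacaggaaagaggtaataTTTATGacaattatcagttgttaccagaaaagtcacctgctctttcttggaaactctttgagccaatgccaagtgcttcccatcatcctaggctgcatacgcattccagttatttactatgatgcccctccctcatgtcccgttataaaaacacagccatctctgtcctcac
Reg3g (chr4:112484739-112484988, minus strand): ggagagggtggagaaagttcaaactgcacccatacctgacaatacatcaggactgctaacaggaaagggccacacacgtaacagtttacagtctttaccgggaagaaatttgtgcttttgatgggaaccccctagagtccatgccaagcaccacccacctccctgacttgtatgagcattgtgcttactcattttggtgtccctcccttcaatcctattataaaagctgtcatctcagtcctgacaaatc
Trpv6 (chr4:71489668-71489917, minus strand): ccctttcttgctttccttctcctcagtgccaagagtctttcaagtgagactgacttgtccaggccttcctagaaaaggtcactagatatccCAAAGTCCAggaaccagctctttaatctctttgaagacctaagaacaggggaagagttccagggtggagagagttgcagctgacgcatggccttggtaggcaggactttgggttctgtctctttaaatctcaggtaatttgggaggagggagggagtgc
The Slc10a2 window held 1 TTTATG on the strand shown and 1 GTTAAT on the opposite strand. The Fabp6 window held 1 TTTATG on the opposite strand, and the Reg3b window 1 on the strand shown. The Trpv6 window held 1 CAAAGTCCA on the strand shown, and the Reg3g window none of the 3. A match describes these letters and does not show that a factor binds there.

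Sample preCTC5 stood apart from the other 3 of its group. In 48 tested genes it lay at least 4-fold above all 3, and in 69 at least 4-fold below, counting genes with at least 1 CPM at the higher end. The other preCTC samples had 7 to 12 such genes above and 3 to 11 below. Low in preCTC5 were Atp12a, the proton and potassium pump of the distal colon (2.14 CPM against 731 to 1186 CPM in preCTC 1, 7 and 9), and Tgm3, a transglutaminase (5.39 against 1262 to 1725 CPM). So were Mptx1, a mucosal pentraxin (1.33 against 997 to 1696 CPM), Fxyd4, a subunit of the sodium pump (0.347 against 259.5 to 566 CPM), Sftpd, surfactant protein D (3.34 against 318 to 446 CPM), and Sval1 (7.58 against 459 to 597 CPM). For Mptx1 and Fxyd4 the level in preCTC5 was under the preSTC range (1.89 to 4.14 and 0.642 to 0.755 CPM). These genes passed edgeR's test but not limma voom's, whose adjusted p was 0.33 for Atp12a, 0.19 for Tgm3, 0.26 for Mptx1, 0.47 for Fxyd4, 0.24 for Sftpd, 0.18 for Sval1 and 0.41 for Hoxb13.

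The genes high in preCTC5 included Car1, a carbonic anhydrase (3273 against 236 to 519 CPM), Fabp2, a fatty acid binding protein (87.8 against 7.55 to 14.8 CPM), and Dmbt1, a secreted scavenger protein (7857 against 47.6 to 1081 CPM). The steroid enzyme Hsd3b2 (153 against 4.41 to 15.8 CPM) and the fucosyltransferase Fut9 (115 against 2.08 to 10.4 CPM), both among the 12 largest log2 fold changes toward preCTC, were of this kind. Without preCTC5 the log2 fold change of Hsd3b2 went from -9.43 to -7.34, that of Fut9 from -10.05 to -7.71, that of Car1 from -6.27 to -4.60 and that of Fabp2 from 6.09 to 7.45. Without preSTC9 that of Car1 was -7.11 and that of Hsd3b2 -10.52. Fut9 had counts in no preSTC sample but preSTC1, and without preSTC1 its adjusted p was 0.074 (edgeR). With limma voom neither Fut9 (adjusted p 0.091) nor Hsd3b2 (0.12) passed. The P450 gene Cyp4f1 changed direction. It had 13.2, 28.9, 16.1 and 34.6 CPM in preSTC and 0.192, 99.98, 0.108 and 0.103 CPM in preCTC, with a log2 fold change of -0.11 (adjusted p 0.97, edgeR) from 8 samples and 7.42 (1.3e-05) without preCTC5.

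Of the 48 genes high in preCTC5, 27 lay above every preSTC sample, 5 within the preSTC range and 16 below every preSTC sample. Of the 69 low in preCTC5, 27 lay above every preSTC sample, 16 within the preSTC range and 26 below every preSTC sample. Among genes at least 8-fold higher in preSTC, preCTC5 was nearer to the other preCTC samples than to preSTC in 234 of 244. Among those at least 8-fold higher in preCTC, this held in 173 of 211. Both sets were chosen with preCTC5 in the fit. A gene where preCTC5 matched preSTC could hardly be 8-fold higher in preSTC, so the first count does not measure which group preCTC5 resembles. Such a gene could still be 8-fold higher in preCTC, as Best2 was (0.320 CPM in preCTC5, log2 fold change -6.25). The second count was thus not fixed in this way, but its genes were also chosen with preCTC5, so it does not settle the question. On the first principal component of log2 CPM, with 72.2% of the variance, preSTC lay at 73.3 to 79.5, preCTC 1, 7 and 9 at -85.9 to -75.5 and preCTC5 at -63.4. The labels do not say whether preCTC5 came from the same stretch of bowel as the others, and this was not tested.

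**Figure D1:**
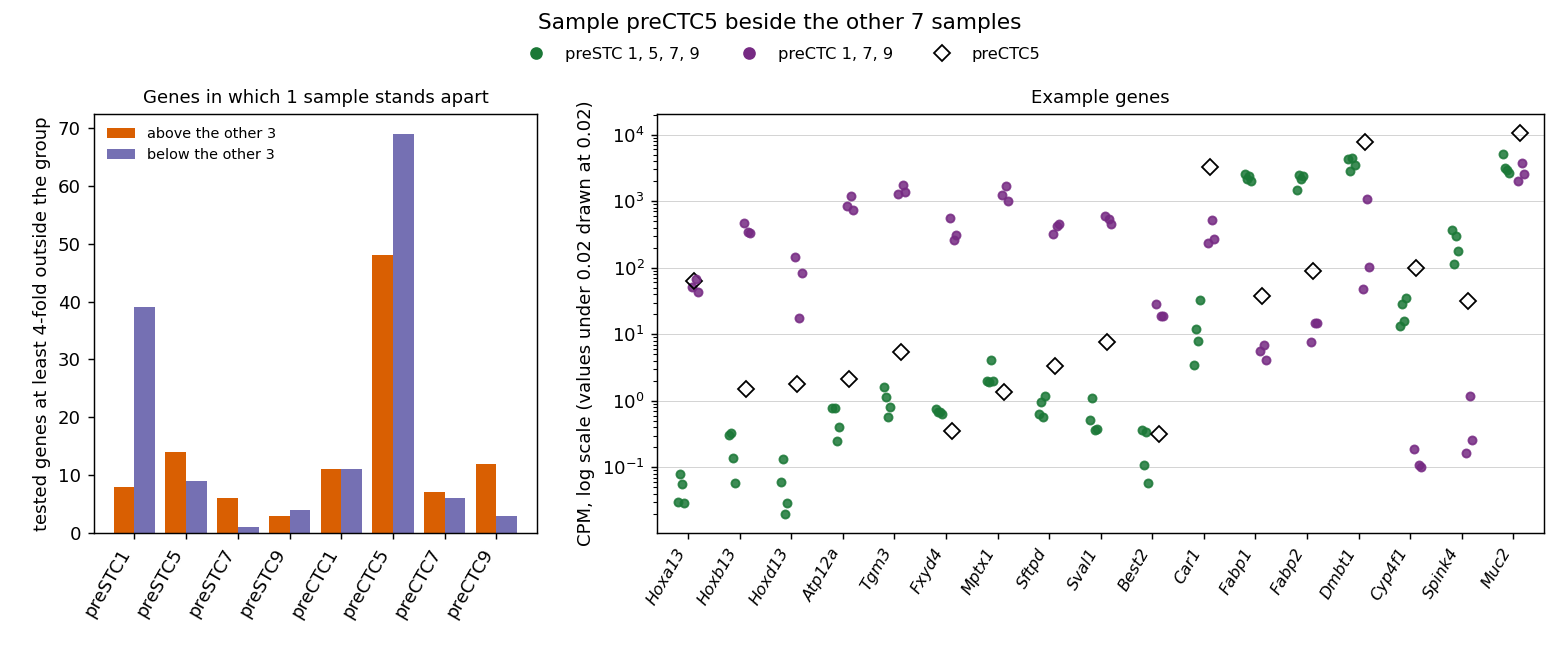
Left: bars give the number of tested genes in which 1 sample lies at least 4-fold above or below the other 3 of its group. Right: CPM on a log scale for example genes, 1 symbol per sample, with preCTC5 as an open diamond, which is far below the other preCTC samples for Hoxb13, Atp12a and Tgm3 and above all 7 other samples for Car1, Dmbt1 and Muc2.

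In preSTC1, 39 genes lay at least 4-fold below the other preSTC samples and 8 above, against 1 to 9 below and 3 to 14 above in the other 3. Those low in preSTC1 included genes of B cell follicles, described with the immune genes. Library totals were alike, 35411844 to 37870799 counts in preSTC and 34217255 to 36470458 in preCTC. Correlations of log2 CPM across genes, which are not independent replicates, were 0.967 to 0.983 within preSTC, 0.957 to 0.978 within preCTC and 0.853 to 0.889 between groups.

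Of 15339 genes tested, 7338 (47.8%) differed, 3467 (22.6%) higher in preSTC and 3871 (25.2%) higher in preCTC. With at least a 2-fold difference, 1204 (7.85%) were higher in preSTC and 1728 (11.3%) higher in preCTC. Without any model, all 4 preSTC samples lay above all 4 preCTC samples for 3366 genes (21.9%), and the reverse held for 3622 (23.6%). The shares 22.6% and 25.2% are the background for each gene group that follows. The median log2 fold change of all tested genes was -0.04, with quartiles of -0.52 and 0.36. The split of calls depended on scaling: with library totals alone, 2523 genes were higher in preSTC and 5081 higher in preCTC, with a median of -0.18. Without preCTC5, 3518 and 3603 genes passed, and 6622 of the 7338 kept their call and direction.

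**Figure D2:**
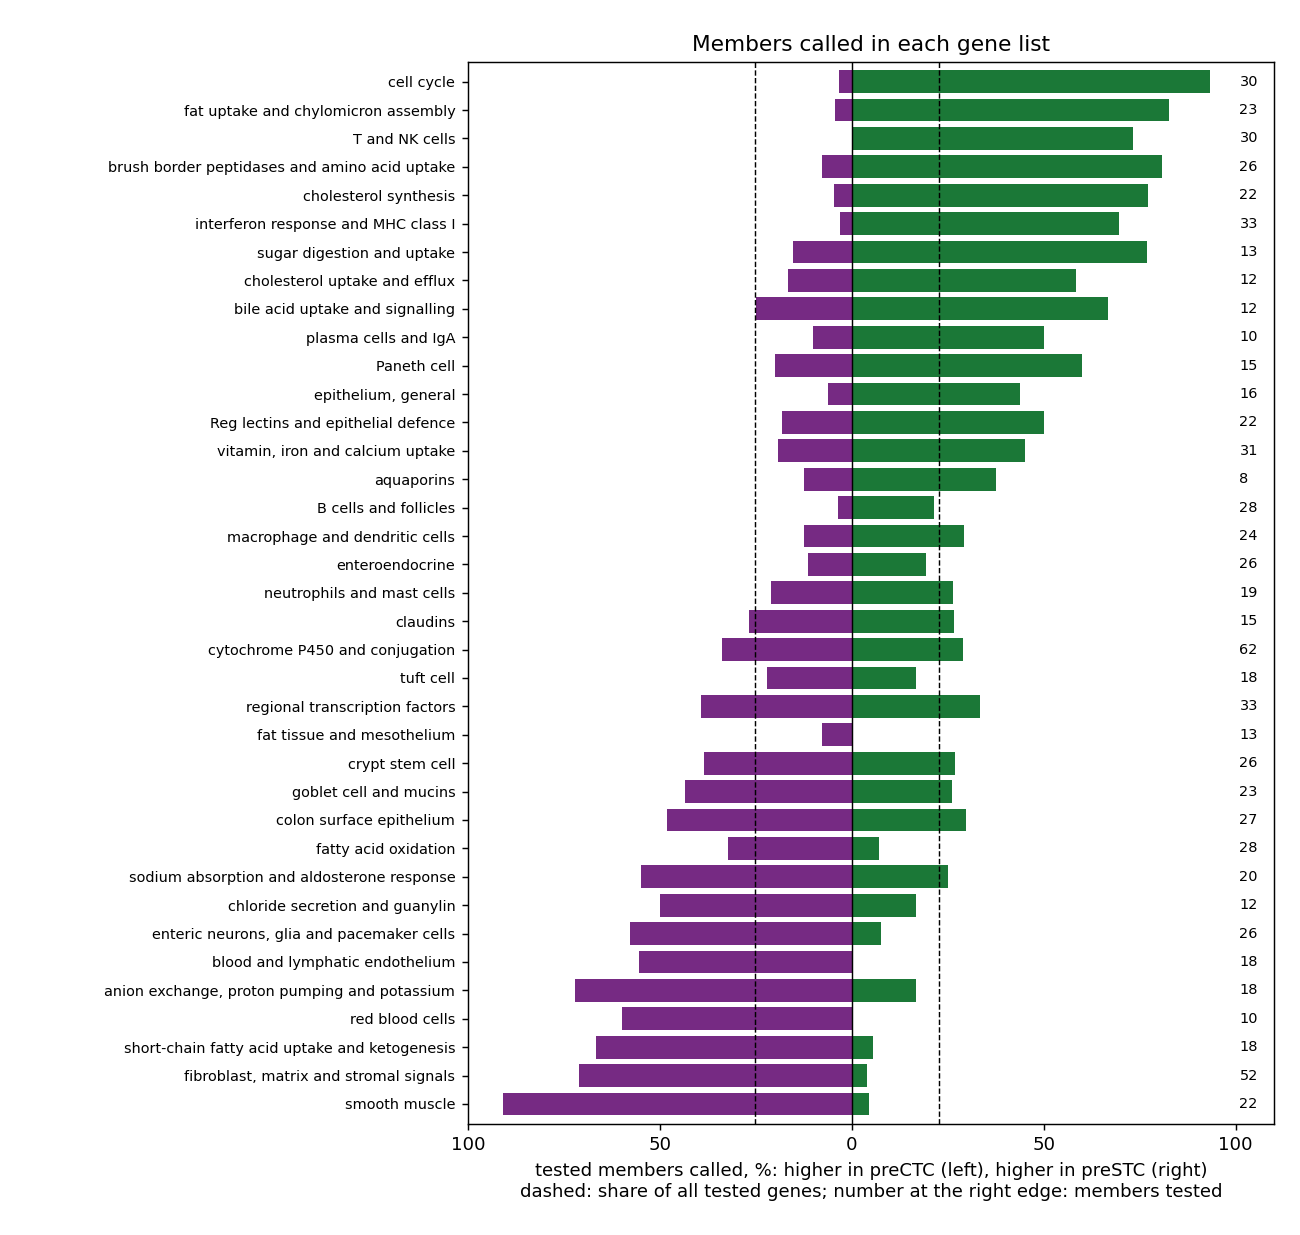
Bars give the share of each list's tested members that were higher in preSTC (right) or in preCTC (left), for lists with at least 8 tested members, whose number stands at the right edge. Dashed lines mark the shares over all tested genes, 22.6% and 25.2%. Cell cycle genes (28 of 30) reach farthest to the right and smooth muscle genes (20 of 22) farthest to the left.

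Bile acid genes were higher in preSTC from uptake to hormone signal. Of 12 tested genes of bile acid uptake and signalling, 8 were higher in preSTC and 3 in preCTC, with a median log2 fold change of 3.27. Slc51a, one chain of the exporter on the blood side, had 1214, 992, 1042 and 1059 CPM in preSTC and 7.12, 37.3, 10.7 and 4.38 CPM in preCTC. Its partner chain Slc51b had 598, 478, 562 and 499.8 CPM in preSTC and 5.28, 16.7, 11.3 and 2.97 CPM in preCTC. Both were highest of the preCTC samples in preCTC5, and without it the log2 fold change of Slc51a went from 6.18 to 7.21. Fgf19, the hormone by which the ileum restrains bile acid synthesis in the liver, had 11.9, 8.45, 10.1 and 10.2 CPM in preSTC and 1 count in all of preCTC. The ratio was 1518 (95% counting interval 272 to 59998). Nr1h4 encodes the bile acid receptor FXR, which switches on Fgf19. Nr1h4 had 159, 111, 166 and 135 CPM in preSTC and 53.3, 70.0, 57.9 and 47.6 CPM in preCTC. Its groups did not overlap, but its difference was smaller, at 1.32 ± 0.15 on the log2 scale. The 3 genes higher in preCTC were Abcc3, an exporter (-0.64), Nr1i2, a receptor for foreign compounds (-0.65), and Vdr, the vitamin D receptor (-0.79). Nr1i2 did not pass with all 12 samples of the series in the fit (adjusted p 0.08, edgeR).

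Genes that digest and absorb protein showed some of the widest gaps. Of 26 tested brush border peptidases and amino acid carriers, 21 were higher in preSTC and 2 in preCTC, with a median log2 fold change of 3.59. Slc6a19, the main carrier of neutral amino acids, had 783, 719, 794 and 632 CPM in preSTC and 0.766, 1.23, 0.459 and 0.820 CPM in preCTC. The 4 samples of each group lay close together and far from the other group. Slc3a1 and Slc7a9, which form the carrier of cystine and basic amino acids, had log2 fold changes of 10.05 ± 0.31 and 6.23 ± 0.53. The aminopeptidases Enpep (2426 to 2831 CPM in preSTC, 14.2 to 28.7 CPM in preCTC) and Anpep (2001 to 3195 and 19.3 to 33.6 CPM) were among the 10 genes with the largest difference in mean CPM toward preSTC. The peptide carrier Slc15a1 had 694 to 879 CPM in preSTC and 21.6, 1.71, 13.02 and 14.8 CPM in preCTC, so here preCTC5 was farther from preSTC than the rest of its group. The meprin chains Mep1a (0.66) and Mep1b (2.16) differed less, and Mep1a did not pass with all 12 samples in the fit (adjusted p 0.068, edgeR). The 2 members higher in preCTC were Slc6a14, a broad amino acid carrier (-2.23), and Slc38a5, a glutamine carrier (-2.03). Cps1, the first enzyme of the urea cycle and outside this list, had 739, 488, 646 and 734 CPM in preSTC and 0.301, 0.534, 0.702 and 0.564 CPM in preCTC.

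Of 13 tested genes of sugar digestion and uptake, 10 were higher in preSTC and 2 in preCTC. Si, sucrase-isomaltase, had 253, 145, 159 and 91.3 CPM in preSTC and 0, 0.0801, 0.189 and 0.154 CPM in preCTC, with a log2 fold change of 10.52 ± 0.57. The glucose carrier Slc5a1 had 175, 128, 241 and 99.95 CPM in preSTC and 42.5, 20.7, 43.3 and 34.9 CPM in preCTC. The fructose carrier Slc2a5 had 14.0, 8.50, 25.8 and 7.79 CPM in preSTC and 0.246, 0.454, 0.324 and 0.205 CPM in preCTC. All 3 were higher in each preSTC sample than in any preCTC sample, with log2 fold changes of 2.19 ± 0.33 for Slc5a1 and 5.50 ± 0.49 for Slc2a5. Mgam, which frees glucose from starch fragments, differed by 0.71 ± 0.12. Slc2a1, the glucose carrier of most tissues, was higher in preCTC (26.4 to 30.5 CPM in preSTC, 110.4 to 146 CPM in preCTC).

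Fat handling lay on the preSTC side too. Of 23 tested genes of fat uptake and chylomicron assembly, 19 were higher in preSTC and 1 in preCTC, with a median log2 fold change of 2.85. Apob, the structural protein of chylomicrons, had 2208, 2574, 2127 and 1636 CPM in preSTC and 2.79, 6.06, 3.35 and 2.69 CPM in preCTC. Mttp, which loads fat onto it, had 731, 579, 507 and 557 CPM in preSTC and 1.37, 0.641, 1.13 and 1.38 CPM in preCTC. Apoc2, the cofactor of lipoprotein lipase, had the largest log2 fold change of the list (10.59 ± 0.33). Fabp1, a fatty acid binding protein, had 2594, 2147, 2363 and 1982 CPM in preSTC and 5.53, 37.2, 7.00 and 4.10 CPM in preCTC, so preCTC5 was above its group and still far under preSTC. The log2 fold change of Fabp1 was 7.40, and 8.70 without preCTC5. Cd36, a fatty acid receptor, was not called (1.84 to 6.10 CPM in preSTC, 3.34 to 6.41 CPM in preCTC). The small leucine-rich protein Smlr1, outside the list and among the 12 largest log2 fold changes, had 35.6, 28.6, 25.4 and 29.7 CPM in preSTC and 3 counts in all of preCTC, a ratio of 1486 (95% counting interval 508 to 7211).

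Npc1l1, which takes up cholesterol, had 152, 145, 108 and 108 CPM in preSTC and 0.383, 4.11, 0.486 and 0.308 CPM in preCTC. Its log2 fold change was 6.60, and 8.37 without preCTC5, the highest of its group. Of 12 tested genes of cholesterol uptake and efflux, 7 were higher in preSTC and 2 in preCTC, or 4 in preCTC with library totals alone. Enzymes of cholesterol synthesis differed less, 17 of 22 higher in preSTC and 1 in preCTC, with a median log2 fold change of 0.72. Srebf2, the factor that drives these enzymes, was not called (0.20, adjusted p 0.087, edgeR), and among the leave-outs passed only without preCTC7 (0.28, 0.023).

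Of 31 tested vitamin and mineral genes, 14 were higher in preSTC and 6 in preCTC. Cubn, the receptor for vitamin B12 bound to its carrier, had 25.1, 54.4, 18.4 and 23.3 CPM in preSTC and 0.301, 0.480, 0.513 and 0.256 CPM in preCTC. Amn, which anchors this receptor, had 55.6, 47.2, 52.0 and 48.3 CPM in preSTC and 8.76, 4.35, 2.32 and 12.9 CPM in preCTC. Slc23a1, the vitamin C carrier, had 64.0, 50.5, 55.5 and 55.1 CPM in preSTC and 0, 0.774, 0.0270 and 0.0769 CPM in preCTC. None of the 3 overlapped between groups, although preSTC5 was high for Cubn, and preCTC5 for Slc23a1, whose log2 fold change of 7.98 became 10.52 without it. Trpv6, the calcium channel of absorbing cells whose promoter window is printed above, had 0.393, 0.243, 0.366 and 0.117 CPM in preSTC and 135, 139, 336 and 181 CPM in preCTC, a log2 fold change of -9.45 ± 0.50. S100g, the calcium buffer calbindin-D9k, had 15.0, 20.3, 13.01 and 5.92 CPM in preSTC and 669, 104, 551 and 837 CPM in preCTC. Its lowest preCTC value was in preCTC5 and still above all of preSTC. Of the iron genes, Slc40a1, the exporter ferroportin, was higher in preCTC (22.7 to 30.7 CPM in preSTC, 127 to 154 CPM in preCTC), as was Fth1, the heavy chain of the iron store ferritin (1933 to 2133 and 5166 to 5709.6 CPM). Heph, the oxidase that works beside ferroportin, was higher in preSTC (359 to 507 and 110.2 to 179 CPM).

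**Figure D3:**
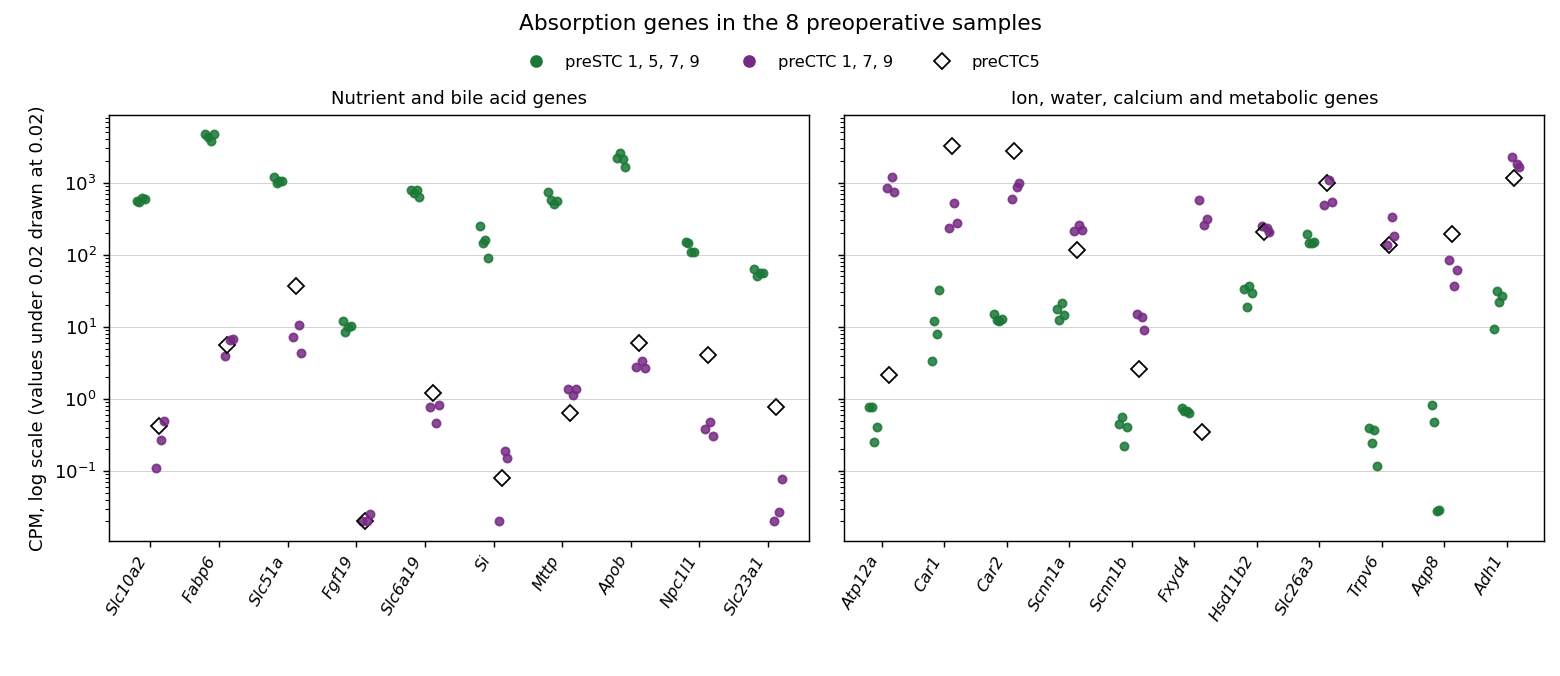
CPM on a log scale for genes of nutrient and bile acid absorption (left) and of ion, water and calcium transport and metabolism (right), 1 symbol per sample. For each gene on the left all 4 preSTC samples lie above all 4 preCTC samples, and on the right preCTC5 (open diamond) drops far below its group for Atp12a and Fxyd4.

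Salt and acid transport was weighted toward preCTC. Of 20 tested genes of sodium absorption and its control by aldosterone, 11 were higher in preCTC and 5 in preSTC. The sodium channel subunit Scnn1a had 17.6, 12.3, 21.1 and 14.7 CPM in preSTC and 210.2, 116, 256 and 219.7 CPM in preCTC. Scnn1b had 0.453, 0.567, 0.225 and 0.408 CPM in preSTC and 15.1, 2.56, 13.5 and 9.15 CPM in preCTC. Scnn1g had 0.393, 0.0540, 0.113 and 0.175 CPM in preSTC and 2.46, 0.374, 2.27 and 1.23 CPM in preCTC. In all 3 subunits preCTC5 was the lowest preCTC sample, and for Scnn1g it fell below preSTC1. Without preSTC1 the log2 fold change of Scnn1g went from -3.10 to -3.77. Hsd11b2, which shields the aldosterone receptor from glucocorticoids, had 18.9 to 36.8 CPM in preSTC and 247, 206, 233 and 205 CPM in preCTC, and there preCTC5 lay with the rest. The receptor Nr3c2 was higher in preCTC, with a log2 fold change of -1.01 ± 0.09. The sodium and proton exchanger Slc9a3 had 133, 153, 87.3 and 147 CPM in preSTC and 179.8, 959, 318 and 269 CPM in preCTC. Its log2 fold change of -1.73 (adjusted p 0.031, edgeR) became -0.95 (0.011) without preCTC5, and it did not pass without preSTC1 (0.071), preSTC5 (0.066), preSTC7 (0.077) or preSTC9 (0.058). The scaffolds Slc9a3r1 (1.99) and Pdzd3 (1.92), which hold this exchanger in the brush border, were higher in preSTC. Fxyd4, described with preCTC5, had a log2 fold change of -8.69, and -8.08 without preCTC1.

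Of 18 tested genes of anion exchange, proton pumping and potassium handling, 13 were higher in preCTC and 3 in preSTC. Atp12a had 0.785, 0.782, 0.253 and 0.408 CPM in preSTC and 838, 2.14, 1186 and 731 CPM in preCTC, a log2 fold change of -10.26 ± 1.92 with 8 samples and -10.66 without preCTC5. Car2, a carbonic anhydrase that supplies protons and bicarbonate, had 15.2, 12.6, 11.9 and 12.95 CPM in preSTC and 591, 2781, 882 and 996 CPM in preCTC. The sample lowest of its group for Atp12a was thus the highest for Car2, whose log2 fold change went from -6.64 to -5.94 without it. Slc26a3, the chloride and bicarbonate exchanger of the colon, had 195, 144, 145 and 151 CPM in preSTC and 482, 973, 1078 and 536 CPM in preCTC. Its relative Slc26a6 had 175, 119.6, 111 and 131 CPM in preSTC and 16.3, 12.0, 19.9 and 13.8 CPM in preCTC. These 2 exchangers separated the groups in opposite directions. Slc4a4, the bicarbonate importer of the basal side, was higher in preSTC (2.82, and 3.73 without preCTC5).

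The water channel Aqp8 had 0.816, 0.486, 0.0282 and 0.0292 CPM in preSTC and 85.5, 193, 36.6 and 60.9 CPM in preCTC. Its log2 fold change was -8.11, -7.46 without preCTC5 and -8.95 without preSTC1, the highest samples of their groups. The other aquaporins that passed, Aqp7 (2.90), Aqp4 (2.66) and Aqp11 (1.77), were higher in preSTC. Of 12 tested genes of chloride secretion, 6 were higher in preCTC and 2 in preSTC, or 4 in preSTC without preCTC5. Best2, a channel of colonic goblet cells, had 0.363, 0.108, 0.338 and 0.0583 CPM in preSTC and 28.4, 0.320, 19.1 and 18.7 CPM in preCTC, so that preCTC5 lay inside the preSTC range, and it did not pass with limma voom (adjusted p 0.22). Ano1, a calcium-activated chloride channel, was higher in preCTC (22.8 to 24.6 CPM in preSTC, 122 to 313 CPM in preCTC). It also belongs to the list of neuron, glia and pacemaker genes described below, and which cells its RNA came from was not tested. Cftr, the channel lost in cystic fibrosis, was not called (-0.45, adjusted p 0.085, edgeR), but passed as higher in preCTC without preCTC9 (0.049) and with library totals alone (0.022). Clca4, a regulator of chloride channels, had 5297, 7871, 7633 and 8292 CPM in preSTC and 775, 883, 2491 and 792 CPM in preCTC, with a log2 fold change of 2.56, or 3.15 without preCTC7.

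Of 18 tested genes for short-chain fatty acids and ketone bodies, 12 were higher in preCTC and 1 in preSTC. Slc16a1, a carrier of butyrate and lactate, was higher in preCTC (80.9 to 119.8 CPM in preSTC, 340.0 to 351 CPM in preCTC). The sodium-coupled carriers of these acids parted: Slc5a8 was higher in preCTC (92.8 to 119.8 and 132 to 266 CPM) and Slc5a12 in preSTC (287 to 457 and 0.160 to 0.461 CPM). Acsm3, which activates medium-chain and shorter fatty acids, had 11.9, 2.96, 34.5 and 10.4 CPM in preCTC and 2 counts in all of preSTC, a ratio of 1038 (95% counting interval 287 to 8575). Its highest value was in preCTC7, and its log2 fold change went from -9.72 to -8.89 without that sample. Of 28 tested enzymes of fatty acid oxidation, 9 were higher in preCTC and 2 in preSTC, with a median log2 fold change of -0.14. With library totals alone, 14 were higher in preCTC.

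The surface of the lining was mixed, 13 of 27 tested genes of colonic surface cells higher in preCTC and 8 in preSTC, or 5 in preSTC without preCTC9. Tgm3 had 1.60, 1.13, 0.563 and 0.817 CPM in preSTC and 1262, 5.39, 1725 and 1351 CPM in preCTC. Lypd8, a protein that keeps motile bacteria off the colonic surface, had 4443, 3386, 4403 and 4291 CPM in preSTC and 7334, 8647, 13243 and 9944 CPM in preCTC. It was abundant in both groups and showed the largest difference in mean CPM toward preCTC, at a log2 fold change of -1.25 ± 0.19. Members higher in preSTC included Krt20, a keratin of mature surface cells (2486 to 3319 CPM in preSTC, 729 to 1766 CPM in preCTC), and Ceacam20, an adhesion protein of the brush border (59.4 to 73.9 and 0 to 0.137 CPM).

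Hox genes of both directions were found. Of 30 tested, 17 were higher in preCTC and 9 in preSTC. All 9 tested genes of the A cluster, from Hoxa2 to Hoxa13, were higher in preCTC, as were all 7 tested genes of the D cluster. Of the D genes, Hoxd4 and Hoxd9 overlapped between groups. All 5 tested genes of the C cluster were higher in preSTC. In the B cluster Hoxb3, Hoxb6, Hoxb7 and Hoxb8 were higher in preSTC, Hoxb13 was higher in preCTC, and Hoxb2, Hoxb4, Hoxb5 and Hoxb9 were not called. Some genes of like number in different clusters differed in opposite directions, while Hoxa13, Hoxb13 and Hoxd13 were all higher in preCTC. Hoxa6 had 0.151, 0.998, 0.451 and 0.379 CPM in preSTC and 10.5, 11.3, 9.51 and 12.5 CPM in preCTC. Hoxb6 had 16.1, 17.6, 17.9 and 22.1 CPM in preSTC and 0.985, 1.92, 0.919 and 1.26 CPM in preCTC. Hoxc6 had 5.14, 5.18, 4.90 and 7.56 CPM in preSTC and 0.0547, 0.133, 0 and 0.0256 CPM in preCTC. None of these 3 overlapped between groups, and the log2 fold change of Hoxc6 went from 6.65 to 7.58 without preCTC5. Hoxa7 (-4.51) and Hoxb7 (4.35) also parted on the log2 scale. So did Hoxa9, higher in preCTC (0.459 to 0.904 CPM in preSTC, 28.1 to 63.7 CPM in preCTC), and Hoxc9, higher in preSTC (0.648 to 1.30 CPM, with 2 counts in all of preCTC). The Hoxc9 ratio was 75.6 (95% counting interval 20.5 to 630.2). Hoxc8 had 7.43 to 9.80 CPM in preSTC and 1 count in all of preCTC, a ratio of 1359 (95% counting interval 244 to 53731). Hoxb9 overlapped between groups (16.4 to 29.8 and 10.9 to 24.9 CPM).

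In the A cluster the log2 fold change was -2.39 ± 0.32 for Hoxa2, -2.84 ± 0.25 for Hoxa3, -2.03 ± 0.43 for Hoxa4, -3.10 ± 0.16 for Hoxa5, -5.79 ± 0.37 for Hoxa9, -9.31 ± 0.61 for Hoxa11 and -10.04 ± 0.28 for Hoxa13. The difference was thus larger for the last genes than for the first, and Hoxa4 had the smallest. In preCTC5 the A genes lay within or above the range of its group. Hoxa9 had 63.7 CPM there against 28.1 to 32.8 CPM in preCTC 1, 7 and 9, and Hoxa11 had 19.2 CPM against 6.95 to 10.4 CPM. The last genes of the D cluster lay far below it. Hoxd10 had 14.0, 0.934, 5.21 and 10.2 CPM in preCTC, Hoxd11 33.4, 0.961, 5.65 and 18.8 CPM and Hoxd13 144, 1.79, 17.8 and 84.2 CPM, while no preSTC sample passed 0.135 CPM for any of the 3. In each of these preCTC1 was the highest and preCTC5 the lowest preCTC sample. Without preCTC5 the log2 fold change of Hoxb13 was -10.81 and that of Hoxd13 -10.38, against -10.42 and -10.00 with it. Neither Hoxd11 (adjusted p 0.058) nor Hoxd13 (0.24) passed with limma voom. Without preCTC1 that of Hoxd13 was -9.13 and that of Hoxd11 -7.74, against -8.56. With so few counts in preSTC, leaving out preSTC5 moved Hoxd11 to -12.04 and Hoxd13 to -10.86, and leaving out preSTC1 moved Hoxd10 from -7.59 to -9.21.

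**Figure D4:**
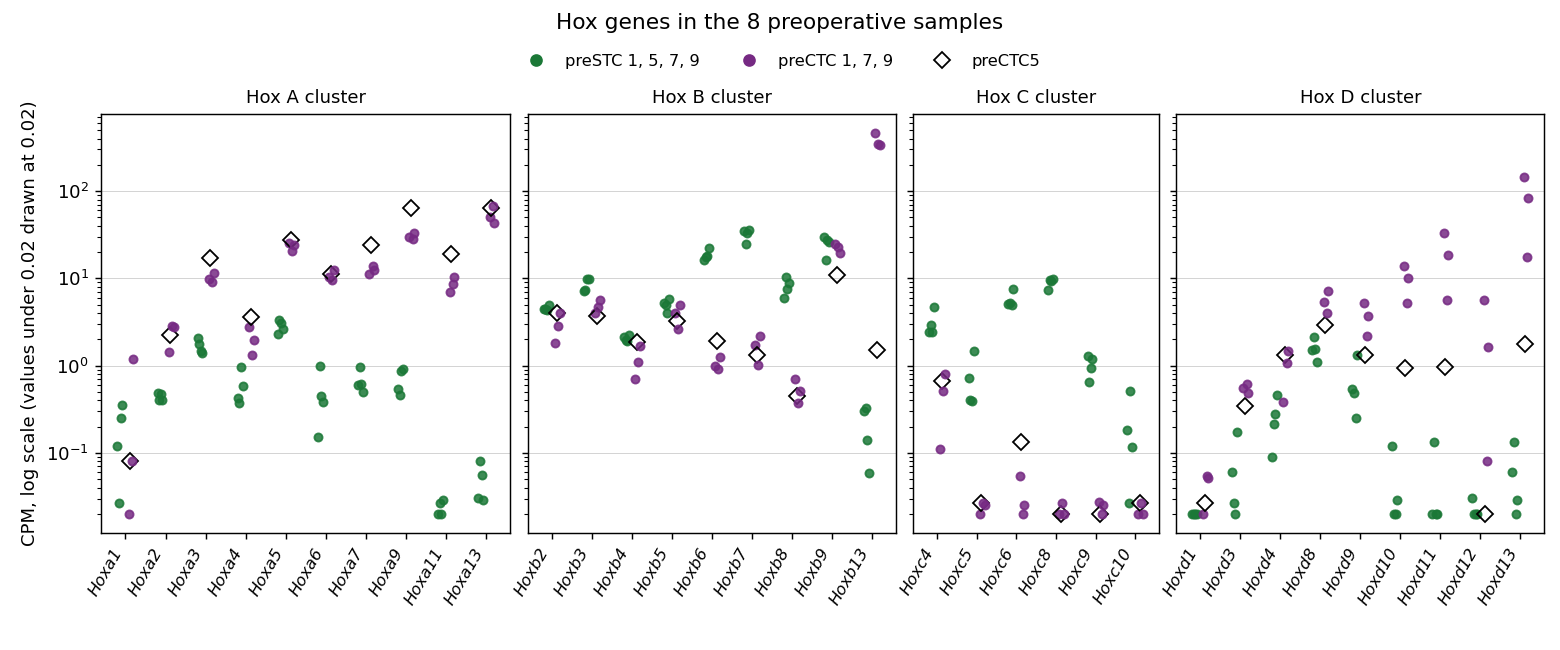
CPM on a log scale for every Hox gene of the table, by cluster and number, 1 symbol per sample. Tested A and D genes lie higher in preCTC and C genes higher in preSTC, with overlap between groups for Hoxd4 and Hoxd9. Sample preCTC5 (open diamond) stays with its group in the A cluster but drops for Hoxb13, Hoxd10, Hoxd11 and Hoxd13.

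Other regional transcription factors were divided, 11 of 33 tested higher in preSTC and 13 in preCTC. Gata5, a factor of the small bowel lining, had 99.0, 82.1, 96.3 and 85.1 CPM in preSTC and 0.383, 0.240, 0.378 and 0.179 CPM in preCTC. It was close to absent from every preCTC sample. Osr2 (7.25 ± 0.24) and Creb3l3, an activator of fat and liver genes (7.63 ± 0.52, and 8.40 without preCTC5), were also higher in preSTC. Esrrg (-3.42 ± 0.17) and its partner Ppargc1a (-2.88 ± 0.11), which promote mitochondrial genes, and the lipid receptor Pparg (-2.91 ± 0.34) were higher in preCTC. Cdx2 and Hnf4a, factors of the whole intestine, were not called. Cdx2 had 231 to 340.2 CPM in preSTC and 185 to 359 CPM in preCTC, and Hnf4a 622 to 838 and 641 to 893 CPM. Cdx1 was higher in preCTC (-0.75) and Hnf4g in preSTC (316 to 355 CPM in preSTC, 24.5, 119.7, 31.8 and 19.2 CPM in preCTC). Hnf4g was highest of its group in preCTC5, and its log2 fold change went from 2.77 to 3.75 without it.

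Secreted defence proteins showed the largest differences in mean CPM toward preSTC. Reg3b, a lectin that binds bacterial walls, had 16258, 14917, 18386 and 20112 CPM in preSTC and 16.4, 19.3, 19.5 and 21.7 CPM in preCTC. Reg3g, its neighbour on chromosome 4, had 12565, 11799, 17232 and 14152 CPM in preSTC and 14.3, 15.3, 15.9 and 16.5 CPM in preCTC. Their log2 fold changes were 9.82 ± 0.20 and 9.81 ± 0.20, and preCTC5 was no exception in either. Of 22 tested Reg lectins and epithelial defence genes, 11 were higher in preSTC and 4 in preCTC. Nos2, the inducible nitric oxide synthase, was higher in preSTC (45.5 to 69.5 CPM in preSTC, 2.13 to 5.24 CPM in preCTC). Tlr4, the receptor for bacterial lipopolysaccharide, had 7.85, 10.1, 8.51 and 9.07 CPM in preSTC and 107, 93.4, 94.9 and 64.7 CPM in preCTC. Cd14, its co-receptor, had 24.0, 23.9, 22.1 and 23.5 CPM in preSTC and 183, 88.7, 143 and 113 CPM in preCTC. Both were higher in every preCTC sample than in any preSTC sample, whereas Tlr5, the flagellin receptor, was higher in preSTC (1.21). Pigr, which carries IgA across the epithelium, was higher in preCTC (1085 to 1524 and 4281 to 5827 CPM). Dmbt1 had 4364, 2799, 4403 and 3499 CPM in preSTC and 47.6, 7857, 1081 and 102 CPM in preCTC and was not called (0.73, and 3.22, adjusted p 0.073 from edgeR, without preCTC5).

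Of 15 tested Paneth cell genes, 9 were higher in preSTC and 3 in preCTC, with a median log2 fold change of 9.46. The defensins Defa8 (2633 to 4055 CPM in preSTC, 2.67 to 3.49 CPM in preCTC), Defa9 (1958 to 3516 and 2.78 to 4.59 CPM), Defa24 (1931 to 3338 and 1.70 to 3.23 CPM), Defal1 (2689 to 4600.0 and 3.11 to 5.00 CPM) and RatNP-3b (222 to 525 and 0.107 to 0.383 CPM) were close to absent from preCTC. These genes are near-identical copies, so the counts of single members are uncertain. Mmp7, the enzyme that activates defensins in the mouse, was higher in preSTC (9.51 ± 0.37). Pla2g2a, a phospholipase that attacks bacterial membranes, had 1363, 1124, 2287 and 1523 CPM in preSTC and 159, 733, 2799 and 101 CPM in preCTC. Itln1, an intelectin, had 39.9, 767, 77.5 and 1022 CPM in preSTC and 326, 184, 716 and 1294 CPM in preCTC. Both overlapped between groups and varied widely within them, and neither was called. The 3 members higher in preCTC were the ribonucleases Ang (-1.33) and Ang2 and the pentraxin Mptx1 (1245, 1.33, 1696 and 997 CPM in preCTC).

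Mucus genes were divided: of 23 tested, 10 were higher in preCTC and 6 in preSTC. Muc2, the main gel-forming mucin, was not called, with 5170.3, 3197, 2937 and 2604 CPM in preSTC and 2018, 10620.0, 3675 and 2533 CPM in preCTC. Its log2 fold change changed sign with preCTC5, from -0.44 (adjusted p 0.53, edgeR) to 0.37 (0.32) without it. The resistin-like proteins Retnlb (0.0292 to 0.393 CPM in preSTC, 13.3 to 66.2 CPM in preCTC) and Retnla (0 to 0.350 and 22.5 to 94.3 CPM), the first a product of goblet cells, were higher in preCTC. Their log2 fold changes were -8.02, or -9.11 without preSTC1, and -8.73, or -9.86 without preSTC9. St6galnac1, which adds sialic acid to mucin (11.8 to 26.1 and 289.7 to 543 CPM), and B3gnt3, which extends its sugars (2.81 to 3.79 and 83.5 to 141 CPM), were also higher in preCTC. Zg16 (1.64) and Tff3 (1.04), secreted with mucus, and the membrane mucin Muc13 (1.14) were higher in preSTC.

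The count of hormone genes rested on preCTC5. With all 8 samples, 5 of 26 tested enteroendocrine genes were higher in preSTC and 3 in preCTC, or 5 in preCTC with library totals alone. Without preCTC5, 13 were higher in preSTC. Nts, neurotensin, had 56.1, 72.0, 67.1 and 61.8 CPM in preSTC and 0.246, 0.0534, 0.108 and 0.256 CPM in preCTC. Sct, secretin, had 48.8, 35.6, 52.9 and 37.1 CPM in preSTC and 0.547, 2.38, 4.08 and 0.795 CPM in preCTC. Neither hormone overlapped between groups, and the log2 fold change of Sct was 4.48, or 5.13 without preCTC7. Gcg, which encodes GLP-1 and GLP-2, had 165, 156, 144 and 189.8 CPM in preSTC and 40.5, 283, 62.4 and 35.5 CPM in preCTC, so that preCTC5 lay above all of preSTC and the other 3 below. Its log2 fold change was 0.64 ± 0.69 (adjusted p 0.48, edgeR) with preCTC5 and 1.85 (1.4e-04) without it. Chga, a general marker of these cells, went from 0.94 (0.16) with preCTC5 to 1.72 (5.7e-05) without it, and passed with limma voom (0.025). Of 18 tested tuft cell genes, 3 were higher in preSTC and 4 in preCTC, or 2 in preCTC without preSTC5, preSTC9 or preCTC9.

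At the crypt base, Olfm4, a stem cell marker of the small bowel, had 662, 739, 1066 and 1229 CPM in preSTC and 1.75, 15.8, 1.89 and 1.20 CPM in preCTC. Its log2 fold change was 7.48, and 9.18 without preCTC5. Lgr5, the stem cell marker common to small bowel and colon, had 6.71, 6.10, 6.06 and 10.3 CPM in preSTC and 8.98, 2.38, 3.62 and 6.43 CPM in preCTC and was not called. Of 26 tested crypt genes, 7 were higher in preSTC and 10 in preCTC, the latter including Sox9 (-1.16), Ephb3 (-1.19) and Hes1 (-1.26). Of 30 tested cell cycle genes, 28 were higher in preSTC and 1 in preCTC, with a median log2 fold change of 0.95. Mki67, made by dividing cells, had 313, 322, 312 and 255 CPM in preSTC and 151, 151, 183 and 146 CPM in preCTC. Mcm5, part of the replication helicase, had 79.1, 85.0, 84.0 and 65.1 CPM in preSTC and 25.6, 33.6, 30.6 and 28.8 CPM in preCTC. Both were higher in every preSTC sample than in any preCTC sample. Ccnd1, cyclin D1, was higher in preCTC (-0.88), and E2f1, a factor that starts replication, was not called (0.13).

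Detoxifying enzymes were divided, 18 of 62 tested higher in preSTC and 21 in preCTC. Adh1, an alcohol dehydrogenase, had 9.36, 31.5, 22.4 and 26.6 CPM in preSTC and 2257, 1143, 1831 and 1642 CPM in preCTC. Aldh1b1, a mitochondrial enzyme of the next step, had 557, 313, 362 and 427 CPM in preSTC and 2.52, 15.2, 3.27 and 3.67 CPM in preCTC. These 2 genes separated the groups in opposite directions, and the log2 fold change of Aldh1b1 went from 6.07 to 7.07 without preCTC5. Cyp2w1 (-5.29) was higher in preCTC and Cyp1a1, which is induced by aromatic compounds, in preSTC (4.52, or 5.25 without preCTC7). The drug exporters Abcb1a (2.68, or 3.53 without preCTC5) and Abcg2 (3.10) were higher in preSTC.

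Muscle and connective tissue genes were higher in preCTC. Of 22 tested smooth muscle genes, 20 were higher in preCTC and 1 in preSTC, with a median log2 fold change of -1.26. Myh11, smooth muscle myosin, had 850.2, 832, 1049 and 1074 CPM in preSTC and 1689, 3886, 2553 and 2288 CPM in preCTC. Tagln, which binds smooth muscle actin, had 503, 749, 875 and 841 CPM in preSTC and 2467, 3712, 2232 and 2581 CPM in preCTC. Actg2, the actin of gut muscle, had 774, 901, 1339 and 1168 CPM in preSTC and 2817, 4675, 2349 and 2244 CPM in preCTC. In all 3 the groups did not overlap and preCTC5 was the highest of the 8 samples. The 1 gene higher in preSTC, Ldb3, is also used in striated muscle (1.97). Actb, the actin of all cells, was higher in preSTC (7314 to 8459 CPM in preSTC, 3682 to 5018 CPM in preCTC).

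Of 52 tested fibroblast, matrix and stromal signal genes, 37 were higher in preCTC and 2 in preSTC, with a median log2 fold change of -0.99. The collagens Col1a1 (409 to 593 CPM in preSTC, 1032 to 1725 CPM in preCTC) and Col3a1 (808 to 1064 and 2559.6 to 4155 CPM) were among them. Sfrp2, a secreted modulator of Wnt signals, had 0.302, 0.621, 0.282 and 0.379 CPM in preSTC and 46.0, 19.2, 39.7 and 42.8 CPM in preCTC. Igfbp2, which binds insulin-like growth factors, had 1.99, 3.89, 8.93 and 3.21 CPM in preSTC and 96.6, 64.2, 93.1 and 82.6 CPM in preCTC. These 2 differed by more than the collagens did, and preCTC5 was the lowest preCTC sample for both. Bmp2, a signal that limits crypt growth, was higher in preCTC (-2.21 ± 0.27). Grem1, which blocks BMP signals, was not called (-0.46) but passed without preCTC7 (-0.60, adjusted p 0.031, edgeR), and Rspo1, a signal to crypt stem cells, was not called (-0.49). Of 26 tested neuron, glia and pacemaker genes, 15 were higher in preCTC and 2 in preSTC. Of 18 tested endothelial genes, 10 were higher in preCTC and 0 in preSTC, but 6 in preCTC without preSTC5, preSTC7, preCTC1 or preCTC9.

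The summed level of the 22 smooth muscle genes was 6696 to 10060.2 CPM in preSTC and 18107 to 30525 CPM in preCTC, and that of the stromal list 3803 to 4566 CPM and 9284 to 13535 CPM. The summed level of the 16 tested epithelial genes was 19411 to 24222 CPM in preSTC and 13597 to 18957 CPM in preCTC. Of those 16, 7 were higher in preSTC and 1 in preCTC, with a median log2 fold change of 0.21, and with library totals alone 3 were higher in preCTC. Vil1, which bundles actin in microvilli, was higher in preSTC (2.15 ± 0.22), and Cdh1, the adhesion protein of all epithelia, was not called (-0.15), although it passed as higher in preCTC with library totals alone (-0.29, adjusted p 0.027, edgeR). The part of muscle and stroma content in the other differences was not tested.

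T and NK cell genes were higher in preSTC. Of 30 tested, 22 were higher in preSTC and 0 in preCTC, with a median log2 fold change of 1.97. Cd3e, a chain of the T cell receptor complex, had 38.1, 61.3, 38.0 and 46.0 CPM in preSTC and 2.52, 6.33, 10.1 and 13.3 CPM in preCTC. Cd8a, of killer T cells, had 36.7, 37.5, 24.1 and 26.3 CPM in preSTC and 2.03, 3.04, 5.54 and 6.59 CPM in preCTC. Ccr9, the receptor that sends T cells to the small bowel, had 21.4, 31.7, 22.4 and 25.4 CPM in preSTC and 0.383, 0.747, 2.05 and 1.85 CPM in preCTC. All 3 were higher in every preSTC sample than in any preCTC sample. Ccl25, the Ccr9 ligand made by small bowel epithelium, had 468, 433, 446 and 537 CPM in preSTC and 2.05, 2.70, 2.54 and 1.79 CPM in preCTC. The granzymes Gzma (3.20) and Gzmb (2.86), which kill target cells, were higher in preSTC, and Cd4, which rat macrophages also carry, was not called (0.10).

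Of 33 tested interferon response and MHC class I genes, 23 were higher in preSTC and 1 in preCTC, with a median log2 fold change of 1.28. Tap1, which feeds peptides to MHC class I, had 240.0, 145, 186 and 166 CPM in preSTC and 30.7, 29.8, 42.7 and 39.3 CPM in preCTC. Ubd, a ubiquitin-like protein induced by interferon, had 639, 721, 132 and 268 CPM in preSTC and 3.18, 4.19, 4.46 and 8.10 CPM in preCTC. The antiviral genes Rsad2 (8.26 to 29.5 CPM in preSTC, 1.51 to 25.9 CPM in preCTC) and Mx2 (10.2 to 21.5 and 6.38 to 14.7 CPM) overlapped between groups and were not called. Of the MHC class II genes, Cd74 (2858 to 4514 and 543 to 1087 CPM) and RT1-Da (996 to 1421 and 213 to 437 CPM) were higher in preSTC, as was their regulator Ciita (1.82).

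Most B cell genes were not called, and some of them varied widely within each group. Of 28 tested, 6 were higher in preSTC, or 10 without preCTC9, and 1 in preCTC. The 6 were Cd74, RT1-Da, RT1-Ba, Ciita, Ccr6 and Blk, of which the first 4 belong to antigen presentation by many cells. Ccr6 passed at 0.038 (edgeR) and lost its call without preSTC5, preSTC7, preSTC9, preCTC1, preCTC5 or preCTC7, at adjusted p 0.059 to 0.093. The 1 gene higher in preCTC, Gp2, marks the M cells over lymphoid follicles (0.197 to 0.554 CPM in preSTC, 1.47 to 6.19 CPM in preCTC). Ms4a1, which encodes CD20, had 0.393, 109, 40.4 and 27.0 CPM in preSTC and 5.56, 1.92, 4.59 and 32.2 CPM in preCTC. Cr2, found on B cells and follicular dendritic cells, had 0.0302, 206, 45.9 and 23.0 CPM in preSTC and 12.7, 1.15, 10.9 and 66.5 CPM in preCTC. In both genes preSTC1 and preCTC5 were the lowest of their groups, and preSTC5 and preCTC9 the highest. The log2 fold change of Ms4a1 was 2.00 (adjusted p 0.28, edgeR), 1.06 (0.6) without preSTC5 and 3.46 (0.12) without preCTC9. Mzb1, of plasma cells, was higher in preSTC, with 40.8, 42.4, 54.0 and 30.8 CPM in preSTC and 13.6, 14.3, 28.4 and 20.4 CPM in preCTC.

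Of 24 tested macrophage and dendritic cell genes, 7 were higher in preSTC and 3 in preCTC, and 14 were not called. Lyz2, which macrophages and Paneth cells may both make, was higher in preSTC (2.93). Mrc1, a marker of resident macrophages, was higher in preCTC (13.9 to 22.9 CPM in preSTC, 36.4 to 60.8 CPM in preCTC). Of 19 tested neutrophil and mast cell genes, 5 were higher in preSTC and 4 in preCTC, near the background shares. The mast cell proteases Mcpt2 (0.91), Mcpt9 (1.44) and Mcpt10 (2.20) were higher in preSTC and Mcpt4 (-1.065) in preCTC. Ms4a2, also of the mast cell genes, was not called (0.17). Cd177, a surface protein of neutrophils, had 5.23, 4.83, 10.7 and 5.54 CPM in preSTC and 271, 133, 462 and 208 CPM in preCTC. The neutrophil genes S100a8 (0.394 to 0.906 and 0.747 to 3.04 CPM) and S100a9 (1.77 to 3.06 and 4.08 to 17.9 CPM) were also higher in preCTC. Another neutrophil gene, Mpo, was not called (-1.21, adjusted p 0.40, edgeR). Whether Cd177 came from neutrophils here was not tested.

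**Figure D5:**
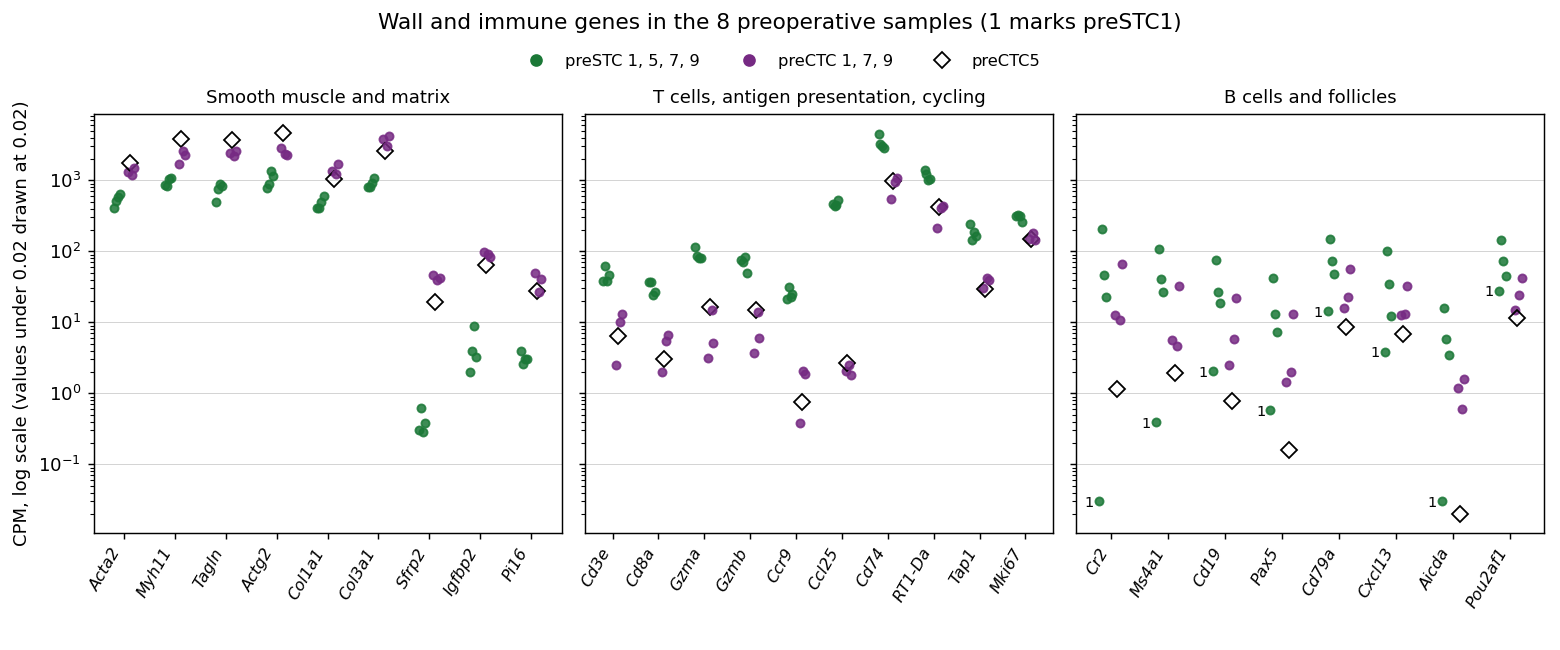
CPM on a log scale for genes of smooth muscle and matrix (left), of T cells, antigen presentation and cycling (middle) and of B cells (right), 1 symbol per sample. Left and middle genes separate the groups in opposite directions, while the B cell genes overlap and are mostly lowest in preSTC1 (marked 1) and, among preCTC, in preCTC5 (open diamond).

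Some genes of the named rules belong to no group above. Fga, a chain of fibrinogen, had 7.28, 10.7, 23.4 and 26.8 CPM in preSTC and 1 count in all of preCTC, a ratio of 2558 (95% counting interval 459 to 101069). Its preSTC values spread from 1 and 5 to the higher 7 and 9. Tgoln2, a protein of the Golgi network, was among the 10 largest differences in mean CPM toward preCTC (397 to 465 CPM in preSTC, 1552 to 1958 CPM in preCTC).

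Genes of neighbouring tissues were also read. Of 13 tested genes of fat tissue and mesothelium 1 was called, and the fat cell gene Adipoq had 128, 9.58, 87.2 and 19.6 CPM in preSTC and 132, 94.5, 96.5 and 218 CPM in preCTC. Its lowest value was in preSTC5 and the highest of preSTC in preSTC1, without which its log2 fold change went from -1.15 to -1.80, not called in either case. Of 10 tested red blood cell genes, 6 were higher in preCTC, but 3 without preSTC1 and 2 without preSTC5 or preSTC9. Of the 16 pancreas genes listed, 4 had enough counts to be tested.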

How the data were processed

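RNA of 12 rat intestine samples was sequenced, and the 8 samples labelled preSTC and preCTC were compared here, 4 against 4, in the groups the labels give. The deposited files hold whole-number counts per gene and FPKM values per gene, made by the authors. Per the submitters' processing notes the tools included fastp, HISAT2 and HTSeq, with the genome build mRatBN7.2. No tool version, strand setting or rule for multiply matching reads is given in the sources used here.

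Counts were fitted with edgeR 4.0.16 (R 4.3.3): genes kept by filterByExpr, TMM factors, quasi-likelihood F test with robust dispersion, Benjamini-Hochberg adjustment over all tested genes, threshold 0.05. The SE was obtained from the log2 fold change and its F statistic (absolute change over the root of F). Ratios for genes with 1 to 3 counts in a group carry exact 95% intervals for counting error only. The step was tested on simulated data. Alternatives used DESeq2 1.42.0, limma 3.58.1 (voom, and log2 of the deposited FPKM + 1 or + 0.1), other scalings and filters, all 12 samples, a replicate block, and each sample left out.

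Named genes were the 4 markers, the 12 with the largest log2 fold change in each direction among non-overlapping genes with a mean of at least 10 CPM in the higher group, the 10 with the largest difference in mean CPM in each direction, the Hox genes, and members of 40 gene lists, of which 836 genes were tested. Some genes that this rule names are not reported here. Members outside the rule named in the closing section were chosen after their values were seen. The lists and the comparison were chosen with earlier results of these data known, so none is independent support. Of the lists' symbols, 9 were matched through gene IDs. Same-numbered samples of the 2 groups were not treated as pairs.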

Additional observations from a re-analysis of the deposited data

Results flagged for a closer look

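For each named gene, a sample was singled out where its gap to the nearest of the other 3 samples of its group, divided by the group's range, passed Dixon's 95% limit for 4 values. This happened 50 times in 412 groups of 4 samples. The chance rate of about 1 in 20 is no background for this count. Some of the genes were chosen after their values were seen, and a group with 1 count in all always passes the limit. Of the 50, 16 were in preCTC5 and 10 in preSTC1.

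In preCTC5 the sample was high for Aldh1b1 (15.2 CPM), Car1 (3273 CPM), Chga (67.3 CPM), Cyp4f1 (99.98 CPM), Dmbt1 (7857 CPM), Fabp1 (37.2 CPM), Fabp2 (87.8 CPM), Fut9 (115 CPM), Gcg (283 CPM), Hnf4g (119.7 CPM), Hoxa9 (63.7 CPM), Hsd3b2 (153 CPM), Npc1l1 (4.11 CPM) and Olfm4 (15.8 CPM), and low for RT1-A3 (8.51 CPM).

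In preSTC1 it was high for Apoc2 (146 CPM), Fam111a (573 CPM), Gzma (116 CPM) and Slc26a3 (195 CPM). It was low there for E2f1 (9.00 CPM), Esrrg (2.33 CPM), Gtpbp2 (1.33 CPM) and Hoxc8 (7.43 CPM).

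In preSTC5 it was low for Lypd8 (3386 CPM) and Cyp1a1 (6.04 CPM). In preSTC7 it was high for Cd177 (10.7 CPM), Mptx1 (4.14 CPM) and Rspo1 (4.08 CPM). In preSTC9 it was high for Hoxb2 (4.99 CPM), Hoxc6 (7.56 CPM), Lgr5 (10.3 CPM) and St6galnac1 (26.1 CPM), and low for Mki67 (255 CPM). In preCTC1 it was high for Fam111a (481 CPM) and low for Gtpbp2 (1.29 CPM) and RT1-Da (213 CPM). In preCTC7 it was high for Clca4 (2491 CPM) and Mki67 (183 CPM), and low for Slc38a5 (1.40 CPM). In preCTC9 it was high for Defa8 (3.49 CPM), Ms4a1 (32.2 CPM) and Ppargc1a (75.6 CPM).

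In groups where no sample reached 1 CPM, the sample was high for Fga (0.0256 CPM) and Fgf19 (0.0256 CPM) in preCTC9, Hoxc8 in preCTC7 (0.0270 CPM), Fut9 (0.121 CPM) and Retnlb (0.393 CPM) in preSTC1, Hoxd11 in preSTC5 (0.135 CPM) and Slc23a1 in preCTC5 (0.774 CPM), and low for Smlr1 in preCTC7 (0 CPM). For Fga, Fgf19 and Hoxc8 the group held 1 count in all.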

How the results depend on the processing

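The number of genes called was 7338. It was 7964 with DESeq2, 7354 with limma voom, 7314 with relative log expression factors, 7265 with upper-quartile factors, 7604 with library totals alone, 7260 with no filter, 7137 with a mean of at least 1 CPM and 6082 with all 12 samples in the fit. With 1 sample left out it was 6368 (without preSTC7) to 7121 (without preCTC5), and 6495 without both preSTC1 and preCTC5, an alternative chosen after seeing the data. None of the 7338 genes was called in the opposite direction in any setting. On log2(FPKM + 1), 714 genes were at least 2-fold higher in preSTC and 1038 in preCTC, in place of 1204 and 1728, and 2509 and 4689 were called. Of the same 206 tested genes as in the check of single samples, 178 kept their call in every setting. Of these genes Cyp4f1 alone reversed with a call: its log2 fold change was 4.89 with limma voom, -0.53 to 7.42 with 1 sample left out and 7.60 without both preSTC1 and preCTC5. Of 1600 list counts under other settings, 1469 were within 1.5 times the reported one.

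A fit with a replicate block called 7032 genes, 3343 higher in preSTC and 3689 in preCTC. Among the 206 genes this fit called Fam111a (adjusted p 0.015, edgeR), Gtpbp2 (0.036), Hoxb9 (0.025), RT1-A3 (0.0033) and RT1-N2 (0.0077), all higher in preSTC. These were not called without the block. The fit with the block did not call Mptx1 (0.068). The correlations of deviations between same-numbered samples were 0.24, -0.04, 0.20 and 0.13 for numbers 1, 5, 7 and 9. As a hint from the data, preCTC1 and preCTC7 correlated best with their own number, while preCTC5 correlated best with preSTC1 (0.07) and preCTC9 with preSTC5 (0.19).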

Other observations

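In some genes the level followed the replicate number in both groups. In 24 genes the highest and lowest sample differed at least 8-fold within each group, with 0.5 CPM added. The same number was highest in both groups in 11 of these and lowest in both in 13. Fam111a, a protease that acts at replication forks, had 573, 29.0, 56.4 and 23.5 CPM in preSTC 1, 5, 7 and 9 and 481, 21.0, 47.4 and 18.7 CPM in preCTC 1, 5, 7 and 9, high in number 1 of both groups. Gtpbp2, a GTP-binding protein, had 1.33, 35.9, 36.8 and 34.6 CPM in preSTC and 1.29, 24.3, 28.0 and 26.6 CPM in preCTC, low in number 1 of both. RT1-N2, an MHC class I gene, had 27.7, 20.6, 0.225 and 0 CPM in preSTC and 8.59, 8.59, 0.0540 and 0.0256 CPM in preCTC, high in numbers 1 and 5. RT1-A3, another, had 178, 13.1, 102 and 119 CPM in preSTC and 49.2, 8.51, 44.6 and 52.1 CPM in preCTC, lowest in number 5. MHC class I genes are close copies that vary between animals, so single members are uncertain. The labels do not say whether a number marks 1 animal.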
